A study of Homo sapiens with 2 samples.

Results

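The miR-15/16 family with miR-424 and miR-503 was described from small RNA sequencing of A375 cells, a widely used line of human melanoma. It was taken as every deposited entry from the hairpins mir-15b, mir-16-2, mir-15a, mir-16-1, mir-424, mir-503, mir-195 and mir-497, both arms: 16 of the 1546 entries, which carry 15 of the 1497 mature miRNA names and come from 8 of the 1095 hairpins. The 8 hairpins lie as neighbours at 4 loci, mir-15b/mir-16-2, mir-15a/mir-16-1, mir-424/mir-503 and mir-195/mir-497. Mature miR-16-5p is the same sequence at both miR-15/16 loci and so has 2 entries and 1 name.

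The study asks which miRNAs act on BRAF-X1, a transcript of the kinase gene BRAF. Its samples here form 1 group: A375 cells kept for 48 h with the solvent DMSO, with no genotype change or further agent named in the labels. The 2 libraries, called independent replicates, held 10816826 (replicate 1) and 15428446 (replicate 2) read assignments. Nothing says that they came from separate cultures, and part of their spread may be technical. No condition could be compared. The questions that the data can answer are how much each family member contributed, which of the loci and which arm it came from, and how closely the libraries matched.

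MicroRNAs guide the Argonaute protein to messenger RNAs through their seed, the bases near the 5′ end that pair with the target. The 5p arms of this family are known as brakes on the cell cycle and on survival, with cyclin D1, cyclin E1, CDC25A and BCL2 among their targets in human cells. The mir-15a/mir-16-1 pair is the one lost with DLEU2 in many chronic lymphocytic leukaemias. From a hairpin, one strand is usually kept in Argonaute as the guide and the other, the passenger, is mostly degraded.

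The mature 5p sequences, from RefSeq with GRCh38.p14 positions, are shown because the family is defined by its seed, bases 2 to 8, given in capitals. All 15 names had a RefSeq sequence. The files prefix them with hsa-, for Homo sapiens, which is left out where it is not needed.
hsa-miR-16-5p: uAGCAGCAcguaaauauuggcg
hsa-miR-15b-5p: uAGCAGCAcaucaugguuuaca
hsa-miR-15a-5p: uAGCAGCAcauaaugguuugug
hsa-miR-424-5p: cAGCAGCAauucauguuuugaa
hsa-miR-497-5p: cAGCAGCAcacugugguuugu
hsa-miR-195-5p: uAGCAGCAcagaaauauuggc
hsa-miR-503-5p: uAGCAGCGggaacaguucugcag
Of the 7 names, 6 share the seed AGCAGCA, while miR-503-5p has AGCAGCG and was the only 1 of 2370 RefSeq mature names with it. The full seed AGCAGCA occurred in 7 RefSeq names, the seventh being miR-6838-5p. Behind the seed the sequences diverge. MiR-16-5p and miR-195-5p were identical at 19 of 21 bases, the differences being G10A and U11G, with positions counted from the 5′ end and the base of miR-16-5p first. MiR-15b-5p and miR-15a-5p were identical at 18 of 22 bases and differed by C12A, A20G, C21U and A22G, with the base of miR-15b-5p first. Their 3′ ends thus tell reads of these loci apart, which the miR-16-5p sequence does not. The 5p arms began with U in 5 of 7 names and with C in miR-424-5p and miR-497-5p, and their GC content ran from 36.4% to 56.5%. Over all RefSeq mature names 36.8% began with U.

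The 3p sequences are shown for the arms that separate the loci or that were abundant, again with bases 2 to 8 in capitals.
hsa-miR-16-2-3p: cCAAUAUUacugugcugcuuua
hsa-miR-16-1-3p: cCAGUAUUaacugugcugcuga
hsa-miR-195-3p: cCAAUAUUggcugugcugcucc
hsa-miR-15b-3p: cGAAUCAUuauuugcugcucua
hsa-miR-15a-3p: cAGGCCAUauugugcugccuca
hsa-miR-424-3p: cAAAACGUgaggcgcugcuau
The seed CAAUAUU of miR-16-2-3p is also that of miR-195-3p, the only other RefSeq name with it, whereas miR-16-1-3p differs from miR-16-2-3p at A4G and so has a seed of its own. Each of the other 3p arms also had a seed that no other RefSeq name carried. The letters UGCUGC, which can pair with part of the 5p seed, were in 5 of the 8 3p arms (those of mir-15b, mir-16-2, mir-15a, mir-16-1 and mir-195) and in 1.14% of all RefSeq mature names. This search covered the mature strand only. Of the 8 3p arms, 7 began with C and miR-503-3p began with G.

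In GRCh38 the mir-15b/mir-16-2 locus lies at chr3:160404588-160404825 on the plus strand, inside an intron of SMC4, which encodes a condensin subunit needed for mitotic chromosomes. Mir-15a and mir-16-1 lie at chr13:50048973-50049201 on the minus strand within the noncoding gene DLEU2, where mir-15a overlaps an annotated exon and mir-16-1 an intron. Mir-424 and mir-503 lie at chrX:134546328-134546711 on the minus strand within MIR503HG, mir-424 over an exon and mir-503 in an intron. Mir-195 and mir-497 lie at chr17:7017615-7018022 on the minus strand and overlap an exon of MIR497HG. The hairpins of a pair are 59, 57, 215 and 209 bases apart in the order of the loci just given. Host genes are those of GENCODE 29. The build behind the deposited values is not given in the sources used here.

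**Figure D1:**
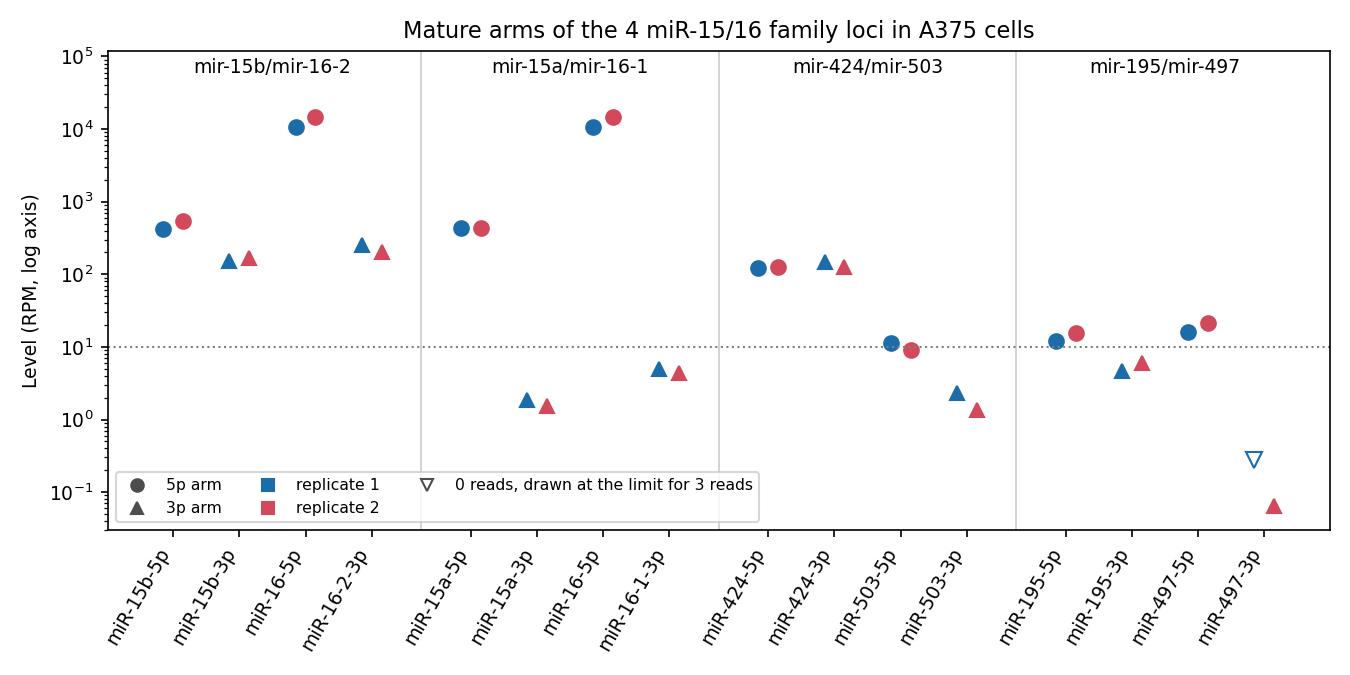
Level of each mature arm in RPM (log axis) in the 2 libraries, grouped by locus, with 5p arms as circles and 3p arms as triangles; the dotted line marks 10 RPM. MiR-16-5p, drawn at both of its loci, stands at 10598 RPM or more in each library, the mir-15b/mir-16-2 3p arms lie far above those of mir-15a/mir-16-1, and miR-497-3p, with 0 reads in replicate 1, is drawn at the 0.277 RPM that a count of 0 allows.

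MiR-16-5p, the main guide of the family and a general repressor of cyclins, made up nearly all of the family's 5p arms. Levels are in RPM (reads per 1000000 assigned), and a single read was worth 0.0924 RPM in replicate 1 and 0.0648 RPM in replicate 2. Values with ± are means and SD over the 2 libraries (n = 2). In full, hsa-miR-16-5p had 10598 RPM in replicate 1 and 14465 RPM in replicate 2, or 12532 ± 2735 RPM, rank 15 of all mature names. This is the higher of its 2 nearly equal entries. If the authors divided its reads between the hairpins, the level would be the sum of both, 25062 RPM, and with copies summed throughout the 5p arms would hold 2.62% of the total. Let-7f-5p stood next above it by mean (14748 and 11885 RPM) and miR-26a-5p next below (11175 and 13204 RPM). The library values of both overlapped those of miR-16-5p, so its rank among these is not resolved.

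The 7 names of the 5p arms held 1.499% of the reads in replicate 1 and 1.995% in replicate 2, after the copies of a mature name were reduced to 1 value. The exact Clopper-Pearson 95% intervals, which cover counting error only, were 1.491% to 1.507% and 1.987% to 2.003%, narrower than the gap between the libraries. MiR-16-5p alone was 91.2% and 92.6% of these 5p reads. MiR-15b-5p added 3.65% and 3.48%, miR-15a-5p 3.79% and 2.79%, and miR-424-5p 1.07% and 0.805%. MiR-497-5p, miR-195-5p and miR-503-5p each stayed at or below 0.138% in either library. The 8 3p arms held far less, 0.0726% and 0.0647% of all reads.

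Next came hsa-miR-15b-5p, a close relative with the same seed, with 425 RPM in replicate 1 and 544 RPM in replicate 2. The level of hsa-miR-15a-5p was 440 RPM in replicate 1 and 435 RPM in replicate 2. Their order changed between the libraries, and the ranges of mean ± SD, 484 ± 84.1 RPM for miR-15b-5p and 438 ± 3.68 RPM for miR-15a-5p, overlapped. Below them came the passenger miR-16-2-3p with 252 and 200 RPM, then miR-15b-3p with 152 and 166 RPM. Both of these abundant 3p arms come from the mir-15b/mir-16-2 locus.

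From the mir-424/mir-503 pair, miR-424-5p had 124 RPM in replicate 1 and 126 RPM in replicate 2. This guide is known for roles in myeloid differentiation and in the response to low oxygen. Its opposite arm miR-424-3p had 146 and 127 RPM and was thus at least as high as the 5p arm in each library. MiR-503-5p, known to repress cyclin D1 and CDC25A, had 11.4 and 8.94 RPM. MiR-503-3p had 25 and 21 reads, or 2.31 and 1.36 RPM.

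The mir-195/mir-497 pair, often reported as low in tumours, gave the lowest 5p arms apart from miR-503-5p. MiR-497-5p had 15.99 RPM in replicate 1 and 21.3 RPM in replicate 2, and miR-195-5p 11.9 and 15.8 RPM. The mean of miR-195-5p, 13.8 ± 2.70 RPM, overlapped within SD those of miR-497-5p (18.6 ± 3.72 RPM) and miR-503-5p (10.2 ± 1.72 RPM), so the order of these 3 is not resolved by spread, although it was the same in both libraries. MiR-195-3p had 4.62 and 6.03 RPM. MiR-497-3p had 0 reads in replicate 1 and 1 read in replicate 2, at the limit of counting.

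In both libraries 9 of the 15 names reached 10 RPM (6 of 7 5p names and 3 of 8 3p names), a level reached by 22.4% of all 1497 names. The 6 names below were miR-503-5p, which fell short in replicate 2 only, and miR-195-3p, miR-16-1-3p, miR-503-3p, miR-15a-3p and miR-497-3p.

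Mir-16-1 and mir-16-2 cannot be told apart by their shared 5p arm. The deposited entries of miR-16-5p held 114635 reads at mir-16-2 and 114610 at mir-16-1 in replicate 1, and 223166 at mir-16-2 and 223176 at mir-16-1 in replicate 2. The entries differed by 25 and 10 reads. Whether reads that match both hairpins were counted at each or divided between them is not given in the sources used here and was not tested. With each hairpin's own entry of miR-16-5p, the loci summed to 13401 ± 2791 RPM for mir-15b/mir-16-2 and 12974 ± 2732 RPM for mir-15a/mir-16-1, nearly all of it miR-16-5p. Without miR-16-5p the sums were 829 and 910 RPM for mir-15b/mir-16-2, against 447 and 441 RPM for mir-15a/mir-16-1, a ratio of 1.85 in replicate 1 and 2.06 in replicate 2. The mir-424/mir-503 pair summed to 283 and 263 RPM, and the mir-195/mir-497 pair to 32.5 and 43.1 RPM. With both arms summed, this order of the 4 loci was the same in both libraries. The mean ± SD ranges of neighbouring loci did not overlap when miR-16-5p was left out. With 5p arms only, miR-16-5p included, mir-15b/mir-16-2 had 11023 and 15008 RPM and mir-15a/mir-16-1 had 11036 and 14900 RPM. The order of these loci then changed between the libraries.

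The arms that have names of their own gave different pictures of the balance between mir-15b/mir-16-2 and mir-15a/mir-16-1. By the 5p arms the loci were nearly even: miR-15b-5p made up 49.1% (95% interval 48.1% to 50.1%) of the reads of miR-15b-5p and miR-15a-5p in replicate 1 and 55.6% (54.8% to 56.4%) in replicate 2. By the 3p arms mir-15b/mir-16-2 held almost everything. MiR-15b-3p had 1641 and 2555 reads, against 20 and 24 for miR-15a-3p, and so made up 98.8% and 99.1% of the pair. MiR-16-2-3p had 2729 and 3091 reads, against 53 and 68 for miR-16-1-3p, or 98.1% and 97.8%.

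Expressed as ratios of RPM, miR-15b-5p was 0.965 of miR-15a-5p in replicate 1 and 1.25 times it in replicate 2. MiR-15b-3p was 82.1 and 106 times miR-15a-3p, and miR-16-2-3p was 51.5 and 45.5 times miR-16-1-3p. The 3 pairs summed placed 65.0% and 67.4% of reads at mir-15b/mir-16-2. Reads of the libraries were compared by Fisher's exact test (two-sided, 4 tests), which gave p = 1.0e-22 for the 5p pair, p = 0.44 for the miR-15 3p pair and p = 0.52 for the miR-16 3p pair. The exact test of the summed share gave p = 4.4e-06. The tests cover counting error and compare 2 libraries of 1 group, and these p-values are not adjusted. How the shared miR-16-5p reads divide between the loci was not resolved by these values.

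**Figure D2:**
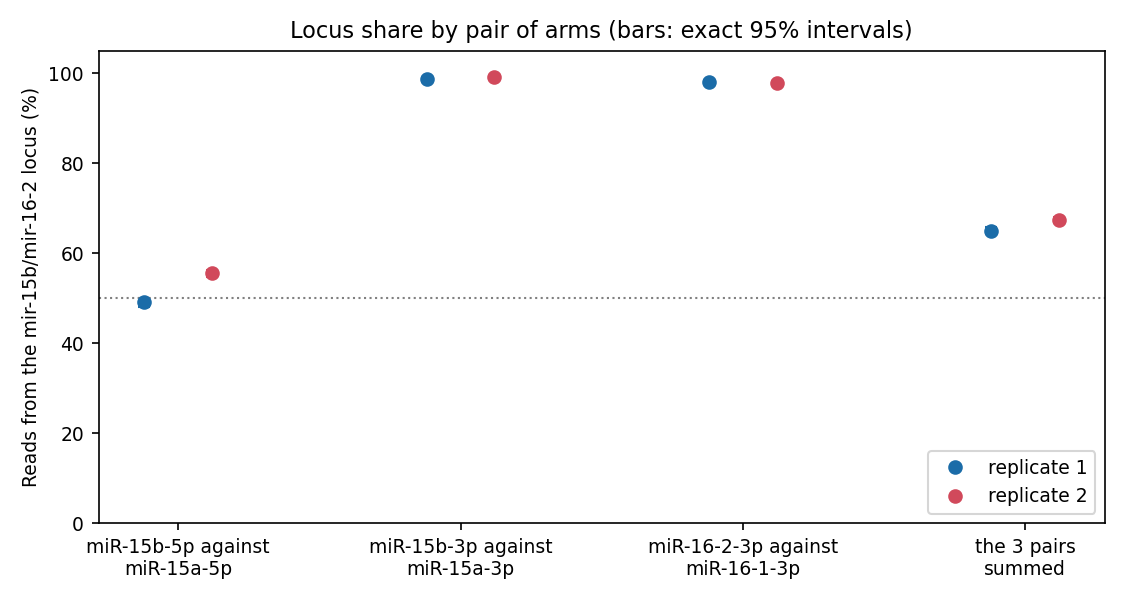
Share of reads (percent) from the mir-15b/mir-16-2 locus for each pair of arms that differ between it and mir-15a/mir-16-1, in each library, with exact 95% intervals. The 5p pair lies near the dotted line at 50, at 49.1% and 55.6%, while both 3p pairs lie at 97.8% or more.

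The hairpins of the first locus and of mir-16-1 and mir-424 show where the arms sit, with the annotated mature arms in capitals, the 5p arm first.
mir-16-2: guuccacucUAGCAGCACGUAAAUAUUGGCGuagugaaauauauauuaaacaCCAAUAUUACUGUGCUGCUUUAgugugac
mir-16-1: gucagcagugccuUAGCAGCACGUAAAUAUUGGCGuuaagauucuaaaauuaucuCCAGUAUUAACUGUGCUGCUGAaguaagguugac
mir-15b: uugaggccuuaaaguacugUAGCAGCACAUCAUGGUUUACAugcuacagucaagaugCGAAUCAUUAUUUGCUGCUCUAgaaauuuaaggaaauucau
mir-424: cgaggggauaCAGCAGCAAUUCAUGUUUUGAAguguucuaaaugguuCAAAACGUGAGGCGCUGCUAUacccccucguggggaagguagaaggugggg
The first 3 lie at chr3:160404745-160404825, chr13:50048973-50049061 and chr3:160404588-160404685, and mir-424 at chrX:134546614-134546711.

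Arm use ranged widely within the family. In 7 of 8 hairpins the 5p arm was over 2-fold higher than the 3p arm in both libraries, on the log2(RPM + 1) scale, and in none was the 3p arm. Mir-424 was the exception. The same held for 51.0% of the 210 hairpins of the whole table that list both arms and sum to at least 10 RPM. Of the 137 that sum to at least 100 RPM, 58.4% favoured 5p in this way and 7.30% neither arm. The family had 5 hairpins among the 137, of which 4 favoured 5p and mir-424 neither. The counts of 7 and 4 include both mir-16-1 and mir-16-2. Both hairpins were called with the nearly equal entries of miR-16-5p, so the preference of each is not resolved. With a pseudocount of 10 RPM, 5 of the 8 hairpins favoured 5p.

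In mir-424, 5p over 3p was -0.23 in replicate 1 and -0.01 in replicate 2 on the log2(RPM + 1) scale. The 3p arm held 54.0% of its reads in replicate 1 (95% interval 52.2% to 55.8%) and 50.2% in replicate 2 (48.6% to 51.8%), so neither arm led firmly. Only 1.46% of the 137 hairpins had a smaller absolute mean log2 ratio.

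The 3p shares of mir-195 and mir-15b came next. In mir-195 the 5p arm was 2.58 and 2.61 times the 3p arm, and the 3p share was 27.9% and 27.7%. In mir-15b the 5p arm was 2.80 and 3.28 times the 3p arm, with a 3p share of 26.3% and 23.3%. Mir-503 had a 3p share of 16.9% and 13.2%, from few reads, with intervals of 11.2% to 23.9% and 8.37% to 19.5%.

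The remaining hairpins were strongly one-sided. The 5p arm of mir-15a was 238 and 280 times its 3p arm, with a 3p share of 0.418% and 0.356%. The paralogs mir-15b and mir-15a, whose 5p arms were about equally abundant, thus differed in 3p share in both libraries with intervals far apart, 25.2% to 27.4% for mir-15b against 0.256% to 0.645% for mir-15a in replicate 1. In mir-497 the 5p arm of 173 reads in replicate 1 was at least 57.7-fold higher than the 3p arm, taking the 3 reads that a count of 0 allows in that library. In replicate 2 it had 328 reads against 1.

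For the mir-16 hairpins the 5p reads are not resolved between the hairpins, so the 3p share describes the deposited entries and not the hairpin itself. It was 2.33% and 1.37% for mir-16-2, and 0.0462% and 0.0305% for mir-16-1. Set against the higher miR-16-5p entry alone, both 3p arms together were 2.37% and 1.40% of the reads.

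**Figure D3:**
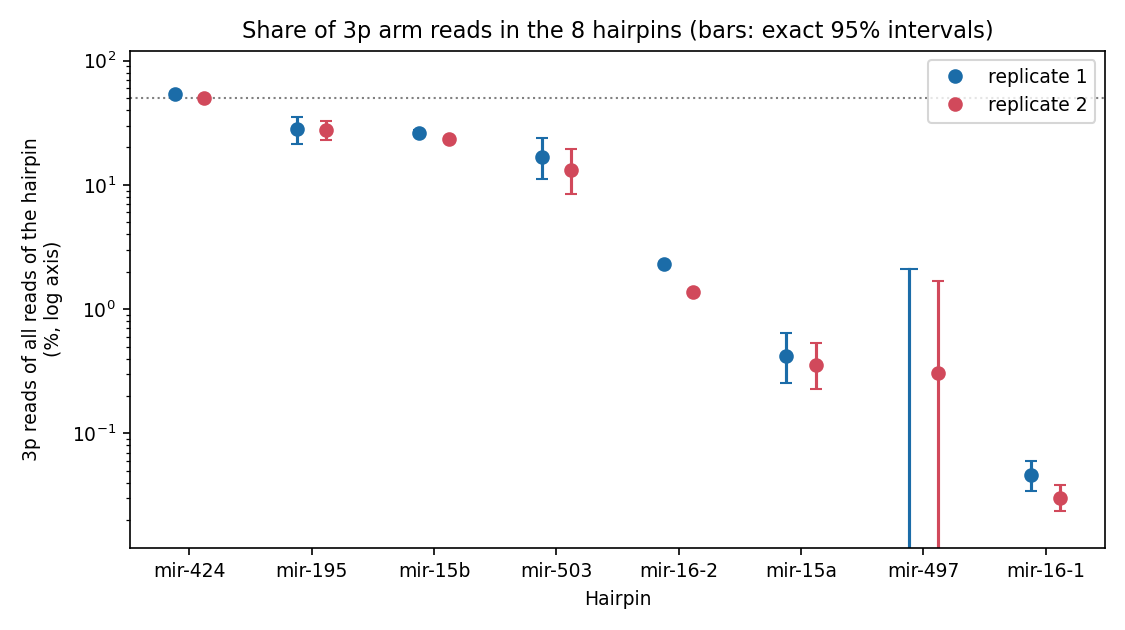
Share of 3p reads (percent, log axis) among all reads of each of the 8 hairpins in each library, ordered by mean share, with exact 95% intervals; the dotted line marks 50%. Mir-424 lies at the line, mir-195, mir-15b and mir-503 lie between 13.2% and 27.9%, and the others lie at 2.33% or less; replicate 1 of mir-497, with 0 3p reads, is drawn as its interval alone.

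The balance of 3p to 5p reads was compared between the libraries by Fisher's exact test (two-sided), adjusted by Benjamini-Hochberg over 386 hairpins, of which 21.5% were called. In the family the exact test called 3 of 8, mir-16-2 (adjusted p = 1.0e-88), mir-15b (adjusted p = 0.00011) and mir-424 (adjusted p = 0.011). In all 3 the 3p share was higher in replicate 1. The test covers counting error only. For mir-16-1 and mir-16-2 it used the nearly equal miR-16-5p entries, so it describes the deposited entries and not the hairpin.

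Neighbours at a locus did not accumulate evenly. MiR-16-5p was 24.9 and 26.6 times miR-15b-5p, and 24.1 and 33.3 times miR-15a-5p, with miR-16-5p at its higher entry and not resolved between the loci. MiR-424-5p was 10.9 and 14.1 times miR-503-5p. MiR-497-5p was 1.34 and 1.35 times miR-195-5p, the closest pair of 5p arms at a locus and one whose ratio moved little between the libraries. On the 3p side miR-16-2-3p was 1.66 and 1.21 times miR-15b-3p.

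Mir-424 and mir-503 share their stretch of the X chromosome with mir-542, mir-450a-1 and mir-450b, and these 5 hairpins lie within 6527 bases on one strand. Mir-450a-2, whose 3p arm is also among the neighbour names, is not among the positions given here. Of 7 names listed for the neighbours, 6 had a value and 3 reached 10 RPM in both libraries. MiR-450b-5p had 59.1 and 72.8 RPM, miR-450a-5p 31.0 and 31.5 RPM, and miR-542-3p 31.0 and 23.4 RPM. MiR-424-5p was 4.01 and 3.99 times miR-450a-5p, 2.10 and 1.73 times miR-450b-5p, and 4.01 and 5.37 times miR-542-3p. MiR-503-5p, the neighbour nearest to mir-424 on the chromosome, thus stood below these 3. MiR-542-5p had 4.07 and 2.40 RPM, and the 3p arms of mir-450a-1 and mir-450a-2 had between 1 and 3 reads in each library.

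Of 5 names listed as relatives by seed, 3 had a value. MiR-6838-5p, which has the full AGCAGCA seed, had 4 and 6 reads, so the seed was supplied almost wholly by the family. MiR-103a-3p and miR-107, known as regulators of insulin sensitivity in mouse, carry the seed GCAGCAU, which is the family motif shifted by a base. MiR-103a-3p had 4959 and 3754 RPM, and miR-107 had 702 and 535 RPM. MiR-16-5p was 2.14 times miR-103a-3p in replicate 1 and 3.85 times it in replicate 2.

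By level in the whole table, miR-424-3p, the highest name of its pair, had rank 144. It stood between miR-330-5p (137 and 146 RPM) and miR-374a-5p (96.6 and 169 RPM). MiR-497-5p had rank 298, between miR-4521 (20.7 and 16.7 RPM) and miR-26b-3p (22.6 and 14.3 RPM). The library values of each overlapped those of the family member. With 2 libraries no likeness of pattern across samples could be measured.

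The libraries were compared name by name, since they give the only error estimate. By Fisher's exact test (two-sided, Benjamini-Hochberg over 869 names), 0 of the 14 family names tested passed an adjusted p of 0.05 with a fold above 2, where 4.60% of all names did. Without the fold limit 7 passed the adjusted p of 0.05, where 34.5% of all names did. At an unadjusted p of 0.05 the family number was also 7. Of the 14 tested family names, 2 passed with the higher level in replicate 1, where 21.2% of all 869 tested names did. With the higher level in replicate 2, 5 of the 14 passed, where 13.3% of all 869 did. The share that passes rises with depth: for a mean of at least 100 RPM it was 5 of 7 family names and 87.7% of all names, so the family did not stand above the background there. In bulk RNA, fewer cells that express a miRNA and less of it per cell cannot be told apart.

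Among these 7, miR-16-5p, miR-15b-5p, miR-497-5p, miR-195-5p and miR-15b-3p were higher in replicate 2, and miR-16-2-3p and miR-424-3p in replicate 1. MiR-16-5p was 1.36 times as high in replicate 2, a log2 difference of -0.45 (replicate 1 minus replicate 2). A larger absolute difference was found in 17.9% of the 346 names that averaged at least 10 RPM. MiR-15b-5p was 1.28 times as high in replicate 2 (log2 difference -0.36, adjusted p = 5.6e-41 in the exact test). MiR-497-5p and miR-195-5p, of the same locus, were 1.33 and 1.32 times as high in replicate 2 (exact test, adjusted p = 0.0085 and 0.035). MiR-15b-3p differed by -0.13 on the log2 scale (exact test, adjusted p = 0.019).

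The 3p arm of mir-16-2 went the other way from miR-16-5p, being 1.26 times as high in replicate 1 (log2 difference 0.33, adjusted p = 1.9e-17 in the exact test). Since miR-16-5p is shared with mir-16-1, opposite changes of the arms of mir-16-2 itself are not shown. MiR-424-3p was 1.15 times as high in replicate 1 (exact test, adjusted p = 0.00023). MiR-15a-5p and miR-424-5p differed by 0.02 and -0.02 on the log2 scale, and 97.1% and 96.8% of those 346 names differed by more. Neither passed the exact test (adjusted p = 0.73 and 0.86). The median absolute log2 difference was 0.32 over the 10 family names among the 346 and 0.25 over all 346.

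**Figure D4:**
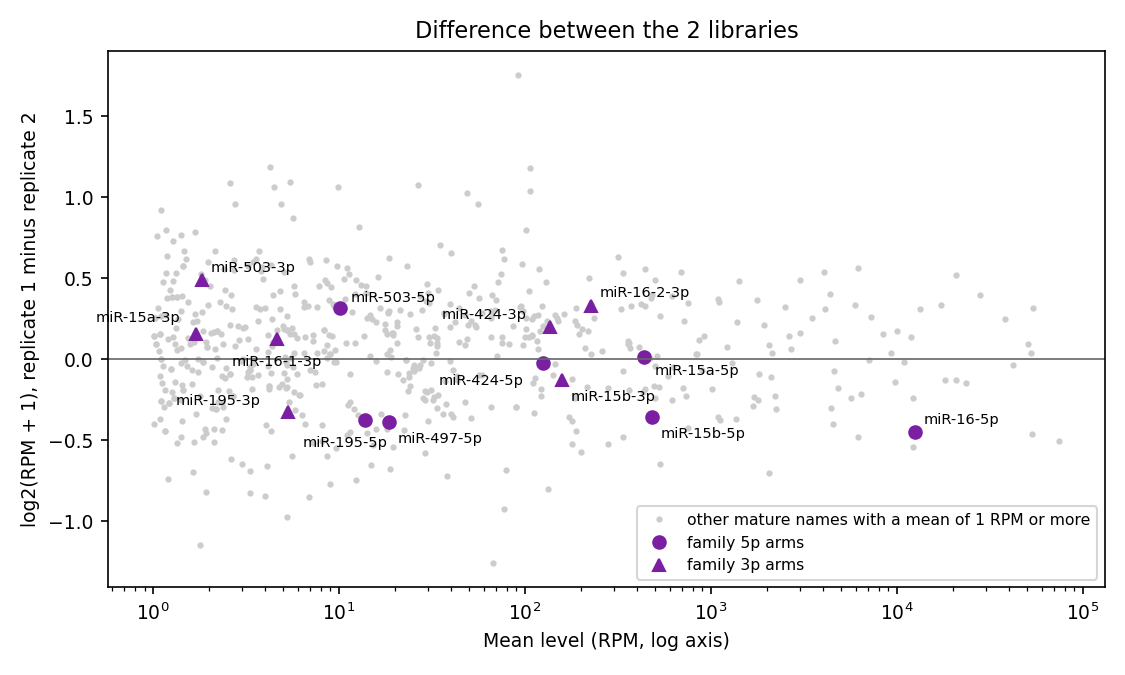
Difference of log2(RPM + 1) between the libraries, replicate 1 minus replicate 2, against the mean level in RPM (log axis), for family 5p arms (circles), family 3p arms (triangles) and all other mature names with a mean of 1 RPM or more (grey). All family names drawn lie between -0.45 (miR-16-5p) and 0.49 (miR-503-3p), within the cloud of other names.

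As a check of the cell label, 4 of 5 listed melanocyte and melanoma miRNAs were found at 10 RPM or above in each library, miR-204-5p, miR-146a-5p, miR-221-3p and miR-222-3p. The melanocyte miR-211-5p went the other way, with 3 and 2 reads. The count of 4 of 5 cannot settle the label, since 22.4% of all names reached 10 RPM in both libraries.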

How the data were processed

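The tools CASAVA 1.8 and cutadapt 1.2.1, an adapter trimmer, are named in the submitters' processing notes, without their settings. How reads were aligned, to which build and annotation, and how those with several matches were treated is not given in the sources used here. Ligation bias between sequences means that RPM only approximate molar amounts. The deposited values are RPM with decimal commas, scaled by the authors to 1000000 per column over all entries. All values (100%) were whole multiples of the smallest in their column within 0.01 reads, so read assignments were recovered. Each column was matched to its sample through the description, with 0 other value columns in the table.

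For each mature name the highest copy was kept per library, which left 77.6% and 78.3% of the deposited total as the denominator of shares. Logarithms used a pseudocount of 1 RPM, so differences of low names are understated. Library tests took names, and arm tests hairpins, with 10 reads or more in sum; folds added 0.5 reads. Intervals are exact Clopper-Pearson. The library test was checked on simulated libraries that differed by set changes and counting error only. That check does not cover spread beyond counting error between the real libraries. Every family name and the listed relatives are described, with the names next in rank to the highest of each locus. The members and lists were chosen with earlier results of these data known. Computations used Python 3.11.15, scipy 1.17.1 and pandas 2.3.3. Alternatives were other pseudocounts, minima, fold limits, summed copies, median-ratio scaling, sets of arms and leaving out each library.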

Additional observations from a re-analysis of the deposited data

How the results depend on the processing

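With copies of a mature name summed, the 5p arms held 2.62% of the total and miR-16-5p stood at 25062 RPM; whether reads were counted at each copy or divided was not tested. Without miR-16-5p the loci mir-15b/mir-16-2 and mir-15a/mir-16-1 fell to 869 and 444 RPM, and with 5p arms only mir-424/mir-503 had 135 RPM. The share of mir-15b/mir-16-2 was 52.3% by miR-15b-5p against miR-15a-5p, 98.9% by the miR-15 3p arms and 98.0% by the miR-16 3p arms, beside 66.2% for all of them. A fold limit of 4 left 4 hairpins that favoured 5p, and a minimum of 1 RPM counted 14 names. A fold limit of 1.2 called 5 names between the libraries, and no fold limit, chosen after seeing the data, called 7. Median-ratio scaling shifted the log2 differences of names at 100 RPM or more by 0.10, and those of lower names by less, and turned that of miR-15a-5p to -0.086. In 32 other comparisons of a main result with an alternative, the value stayed within 1 SD or the count within 1.5 times. Each library alone (5p share 1.499% and 1.995%) stays within 1 SD of the mean by construction with 2 libraries. Such comparisons are among the 32, as are those leaving miR-16-5p out of loci that do not hold it. These values could not move, so the 32 are not all checks of stability. Counts below about 100 reads limit the 3p arms of mir-15a, mir-16-1, mir-503, mir-195 and mir-497. No paired analysis was possible because there is 1 group. The cause of these differences was not tested.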
